A study of Drosophila melanogaster with 2 samples.

Results

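Peaks of the transcription factor Ets98B that lie at the starts of non-coding genes were described in pupae of Drosophila melanogaster. A peak was taken where its summit, the base of highest signal, lay within 500 bp of an annotated start of a gene that is neither protein-coding, a transposable element nor a pseudogene, and more than 500 bp from every protein-coding start. The rule, applied with Ensembl release 115 starts, gave 210 of the 7157 conservative peaks (2.93%, 95% Wilson interval 2.57 to 3.35). It used positions alone and no signal value. A further 134 of the 344 peaks with a summit at a non-coding start also lay at a protein-coding start and were left out.

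The study was a chromatin immunoprecipitation with sequencing (ChIP-seq) of Ets98B-eGFP, the factor fused to a green fluorescent protein, pulled down with an antibody against GFP. Chromatin of whole pupae of the strain Ets98B-GFP, aged 2 days, was sheared by sonication to 200 to 800 bp. There was 1 group, with 2 biological replicates, so every comparison was made among peaks or genes. The tagged factor comes from an insertion in the fly genome, whole animals mix all tissues, and no sample without the tag was analysed here. The lists give no read totals, so the depth of both samples was unknown, and intervals on shares cover counting error only.

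Ets98B belongs to the Ets family, whose members bind DNA through a winged helix domain at sites with a GGAA or GGAT core. Non-coding genes use different transcription machineries. Long non-coding RNAs (lncRNAs), microRNA precursors and most spliceosomal snRNAs are made by RNA polymerase II. The tRNAs, 7SK and the RNA of RNase MRP are made by RNA polymerase III, in tRNA genes from the A box and B box inside the gene. In flies most snRNA promoters carry a proximal sequence element upstream of the start. A microRNA hairpin is cut from a longer primary transcript and most snoRNAs are cut from introns, so the annotated 5′ end of a hairpin or snoRNA is often a processing site and not a site of initiation.

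The DNA at the strongest peak of each class, among the arms from which sequence is printed, and at 2 further lncRNA peaks (the next strongest, and a microRNA host) is shown first, as the summit base with 50 bases on either side, because these are the positions on which the values below rest. Sequences are from the RefSeq Release 6 genome, read 5′ to 3′ on the strand of the gene. Capitals mark the Ets cores GGAA or GGAT, the TATA box word TATAAAA or the GAGA factor word GAGAG, on either strand. The windows are chr3R:29214389-29214489 (plus strand) for lncRNA:CR31044, chrX:12752317-12752417 (plus) for lncRNA:CR44619, chr2L:7423594-7423694 (plus) for lncRNA:CR43857, chrX:12665583-12665683 (plus) for mir-9377, chr3R:7474674-7474774 (minus) for snRNA:7SKa, chr3R:17619852-17619952 (plus) for the peak beside tRNA:Pro-TGG-1-2 and chr3L:1488783-1488883 (plus) for snoRNA:Psi28S-2622.
lncRNA:CR31044: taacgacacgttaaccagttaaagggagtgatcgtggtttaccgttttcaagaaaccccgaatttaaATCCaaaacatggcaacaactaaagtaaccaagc
lncRNA:CR44619: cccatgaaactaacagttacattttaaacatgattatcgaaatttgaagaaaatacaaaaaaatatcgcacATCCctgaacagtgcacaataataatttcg
lncRNA:CR43857: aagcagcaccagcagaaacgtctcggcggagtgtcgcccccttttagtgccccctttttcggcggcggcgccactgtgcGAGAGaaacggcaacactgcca
mir-9377: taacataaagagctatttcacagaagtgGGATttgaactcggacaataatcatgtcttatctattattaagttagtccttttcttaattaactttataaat
snRNA:7SKa: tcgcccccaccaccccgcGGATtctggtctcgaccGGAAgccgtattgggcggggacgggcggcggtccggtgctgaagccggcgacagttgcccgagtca
tRNA:Pro-TGG-1-2: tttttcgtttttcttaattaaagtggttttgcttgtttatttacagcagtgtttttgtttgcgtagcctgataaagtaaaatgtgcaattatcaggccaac
snoRNA:Psi28S-2622: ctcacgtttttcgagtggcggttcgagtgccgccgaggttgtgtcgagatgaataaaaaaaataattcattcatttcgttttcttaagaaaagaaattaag

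The starts of the 3 snRNA genes with a peak are shown because all 3 hold the same upstream word. Each run covers the 80 bases before the annotated start and the first 20 bases of the gene, with AATTCCCAA, a word of the proximal sequence element, in capitals. The windows are chr3R:23859611-23859710 for snRNA:U1:95Ca, chr2L:21215159-21215258 for snRNA:U4:39B and chr3R:7474977-7475076 for snRNA:7SKa, all on the minus strand. The gene of tRNA:Pro-TGG-1-2 (chr3R:17619961-17620032, plus strand) and that of tRNA:Lys-TTT-1-1 (chr2L:8290727-8290799, plus strand) follow, with the B box word TTCNANNC in capitals.
snRNA:U1:95Ca: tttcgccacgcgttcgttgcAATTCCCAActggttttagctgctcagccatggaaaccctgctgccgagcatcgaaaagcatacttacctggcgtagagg
snRNA:U4:39B: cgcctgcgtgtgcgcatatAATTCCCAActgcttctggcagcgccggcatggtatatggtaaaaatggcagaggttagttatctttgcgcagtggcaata
snRNA:7SKa: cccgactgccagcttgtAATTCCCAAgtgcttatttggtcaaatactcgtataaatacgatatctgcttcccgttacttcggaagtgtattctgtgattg
tRNA:Pro-TGG-1-2: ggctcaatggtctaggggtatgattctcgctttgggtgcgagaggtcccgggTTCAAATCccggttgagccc
tRNA:Lys-TTT-1-1: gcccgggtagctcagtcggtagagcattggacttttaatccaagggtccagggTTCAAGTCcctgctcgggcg

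Mature microRNAs whose hairpin or host gene had a peak at an annotated start are shown with the seed, bases 2 to 8, in capitals. For each hairpin the product with the lowest miRBase number is given. The seed groups were read from all 481 mature products of the RefSeq annotation.
mir-279 (3′ arm, 3R): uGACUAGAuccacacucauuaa
mir-996 (3′ arm, 3R): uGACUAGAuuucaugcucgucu
mir-275 (3′ arm, 2L): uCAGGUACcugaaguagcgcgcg
mir-34 (5′ arm, 3R): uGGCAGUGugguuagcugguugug
mir-276a (5′ arm, 3L): cAGCGAGGuauagaguuccuacg
mir-ban (3′ arm, 3L): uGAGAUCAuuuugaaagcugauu
mir-9377 (5′ arm, X): cGCUCUUUcucucuaucuggcc
mir-2491 (5′ arm, X): cGCUGUUGccuuugcaguugcu
mir-4962 (5′ arm, X): uUUCCCUCucucuguuuacauuga
mir-9370 (5′ arm, X): uUUGGGUUgccgguaccgggug

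The seed of mir-279 and mir-996, which lie in 1 host transcript, occurs in 3 hairpins in all, the other being mir-286. The seed of mir-275 is shared with mir-306 and that of the 5′ product of mir-276a with mir-276b. The other 6 seeds shown each occur in 1 hairpin.

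Peaks at non-coding starts were found in every class described except rRNA, but at a minority of the genes. A peak lay at the start of 168 of 2548 ncRNA genes (6.59%), 12 of 260 pre_miRNA genes (4.62%), 23 of 290 tRNA genes (7.93%), 3 of 32 snRNA genes (9.38%) and 7 of 269 snoRNA genes (2.60%). In all, 213 of 3498 non-coding genes had a peak (6.09%), against 2995 of 13968 protein-coding genes (21.4%). The protein-coding count leaves out no peak that also lies at another start. Without the exclusion of protein-coding starts, 337 non-coding genes had a peak (9.63%), still under the protein-coding share. A gene counted if any of its annotated starts had a peak, so a gene with more starts had more windows. The shares were not adjusted for this.

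The intervals of the small classes were wide and, except those of snoRNA and rRNA genes, overlapped that of ncRNA genes. The Wilson interval was 3.24 to 24.2% for the 3 snRNA genes, 2.66 to 7.89% for pre_miRNA and 5.34 to 11.6% for tRNA genes, against 5.69 to 7.62% for ncRNA genes. For snoRNA genes it was 1.27 to 5.27%, below that of ncRNA genes. No rRNA gene of 99 had a peak, with an upper bound of 3.74%. These differences were not tested.

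**Figure D1:**
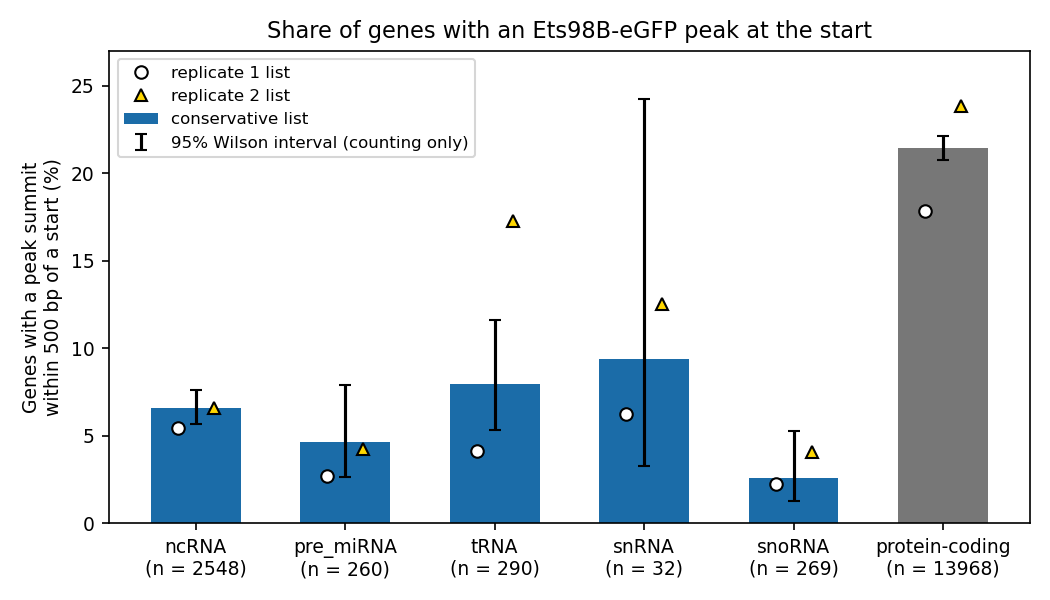
Share of genes (%, y axis) with a peak summit within 500 bp of a start, by gene class (x axis). Bars are the conservative list, error bars 95% Wilson intervals for counting alone, circles the list of replicate 1 and triangles that of replicate 2. The 5 non-coding classes lie between 2.60% and 9.38%, against 21.4% of protein-coding genes, and the tRNA class has the widest gap between replicates relative to its share.

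The replicates gave the same overall share of peaks but not the same tRNA genes. The list of replicate 1 placed 168 of 5851 peaks (2.87%) at non-coding starts, and that of replicate 2 placed 236 of 7963 (2.96%), a mean of 2.92% ± 0.0650 (SD, n = 2). For ncRNA genes the counts were 139 in replicate 1 and 168 in replicate 2, with 100 genes in both. For tRNA genes they were 12 (4.14%) in replicate 1 and 50 (17.2%) in replicate 2, with 7 in both. Of the 23 tRNA genes of the conservative list, 22 were among those of replicate 2 and 7 among those of replicate 1. The tRNA count therefore rests mainly on replicate 2, whose list is the longer, and the part of list length in this difference was not tested.

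Peaks at non-coding starts had about the same signal as other peaks. The signal is the peak caller's value as deposited, on a scale that the sources do not state. Its median was 135 (quartiles 98.2 and 240.2) at non-coding starts, against 133 at the 2839 peaks at protein-coding starts and 131 over all peaks. The median percentile among all conservative peaks was 52.6. By class, the medians were 136 for ncRNA, 139 for pre_miRNA, 107 for tRNA, 159 for snRNA and 148 for snoRNA peaks. The range was 18.0 to 1849 for ncRNA peaks, and no tRNA peak was above 207. Of the 500 strongest peaks of the series 22 lay at non-coding starts (4.40%), and all 20 of the 210 with a signal of at least 500 were at ncRNA genes, the class of 179 of the 210 peaks.

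**Figure D2:**
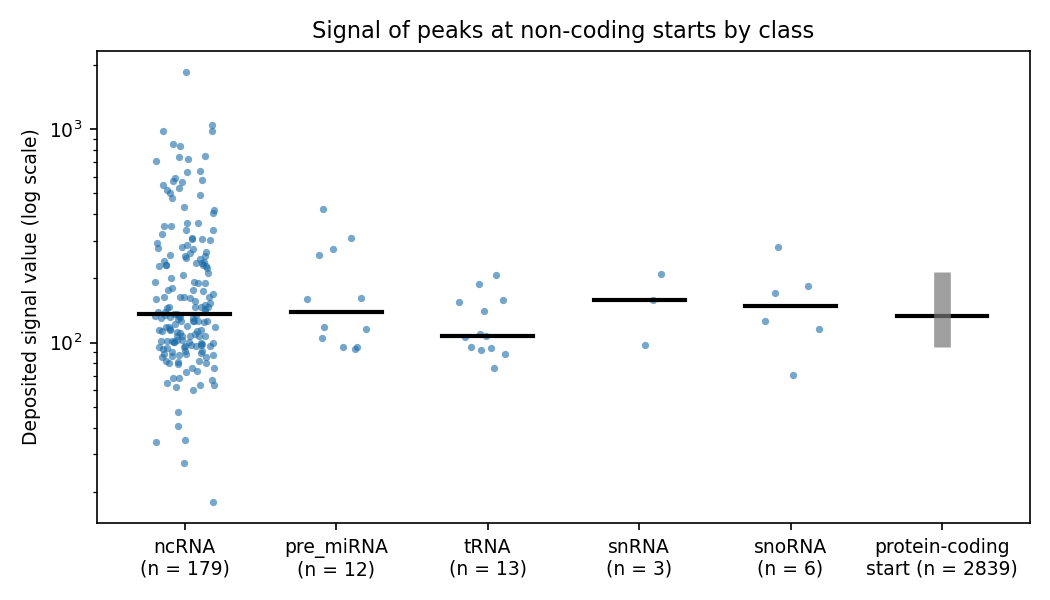
Deposited signal value (log scale, y axis) of each peak at a non-coding start, by class (x axis). Points are peaks, black lines medians, and the grey bar spans the quartiles at protein-coding starts. The medians of the non-coding classes run from 107 for tRNA to 159 for snRNA, against 133 at protein-coding starts, while the ncRNA peaks reach 1849.

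Most of the peaks overlapped a peak of each replicate. The conservative list was itself made from both replicates, so these overlaps and matches are no independent check of the peaks. A thresholded peak of both replicates overlapped 129 of the 210 (61.4%, 54.7 to 67.8), against 64.2% of all peaks. Of the others, 17 overlapped neither list, against 547 of all 7157 peaks. Each peak was also matched to the ranked list of each replicate by a summit within 100 bp, and 186 had a match in both. Over these 186 peaks the signals of the replicates had a Spearman correlation of 0.753, as a description across peaks of 1 pair of libraries. Replicate 2 was higher at 120 of the 186 (64.5%), against 3896 of all 6429 matched peaks (60.6%). The median log2 ratio of replicate 2 over replicate 1 was 0.18, against 0.14 over all matched peaks. For the 9 matched tRNA peaks the median log2 ratio was 0.72 and replicate 2 was higher in 9 of 9. For the 3 snRNA peaks it was 1.17, higher in 3 of 3.

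**Figure D3:**
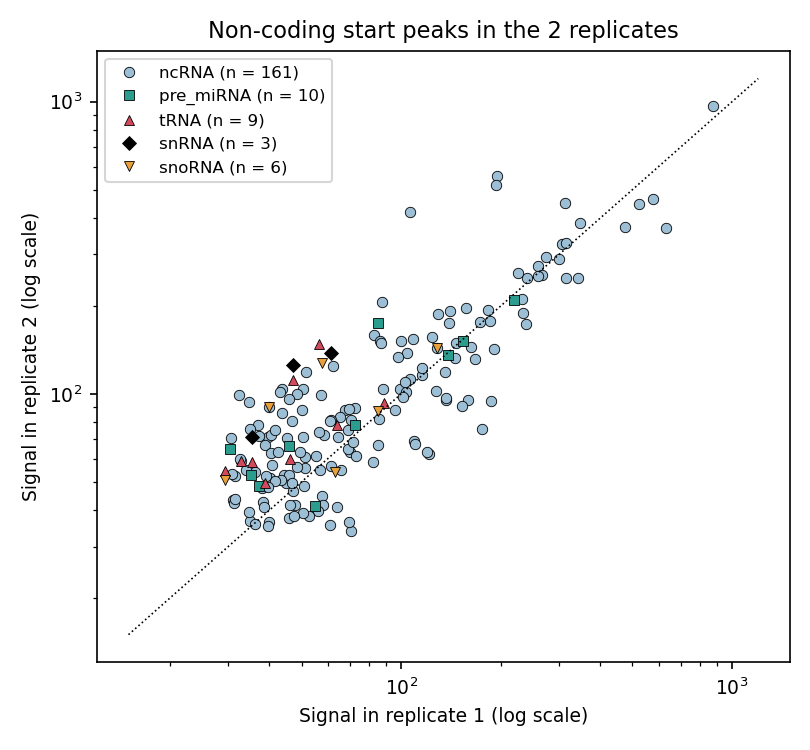
Signal of each non-coding start peak matched in both ranked lists, in replicate 1 (x axis, log scale) and replicate 2 (y axis, log scale), marked by class, with the line of equal signal dotted. The 9 tRNA and 3 snRNA peaks all lie above the line.

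Of the 12 strongest peaks all but 1, at an antisense RNA, lay at lncRNA genes, among them hosts of microRNAs. The highest was at lncRNA:CR31044 (chr3R:29214260-29214605), with a signal of 1849 in the series list, 876 in replicate 1 and 967 in replicate 2. It was peak 12 of all 7157, and its summit lay 123 bp upstream of the start in intergenic DNA. The transcript holds the hairpins of mir-279 and mir-996, which in flies act in the nervous system, and the summit lay 1146 bp before mir-279. Its window, shown above, has a GGAT core on the opposite strand.

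Next came 2 peaks on both sides of the start of lncRNA:CR44619 on X, 500 bp downstream and 475 bp upstream of it. The first (chrX:12752199-12752504) had a signal of 1043, with 577 in replicate 1 and 465 in replicate 2. The other had 985, with 630 in replicate 1 and 369 in replicate 2. At both, replicate 1 was the higher.

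The peak at lncRNA:CR44339 (chr2R:12985048-12985375) had a signal of 977, with 523 in replicate 1 and 445 in replicate 2. Its nearest protein-coding start was that of Psc, a Polycomb group gene, at a distance of 4208 bp. At lncRNA:CR44091 the peak (chr3R:31680826-31681134) had 848, with 476 and 371 in replicates 1 and 2, and its summit was 36 bp downstream of the start. At lncRNA:CR44676 it (chr3L:19560674-19560995) had 835, with 313 and 449 in replicates 1 and 2. Replicate 1 was the higher at CR44339 and CR44091, and replicate 2 at CR44676.

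The peak at lncRNA:CR43651 (chr2R:9552451-9553005), host of mir-14, a microRNA that limits cell death in flies, had a signal of 746, with 194 in replicate 1 and 557 in replicate 2. At lncRNA:CR44810 the peak (chr2R:24329430-24329727) had 737, with 347 and 385 in replicates 1 and 2, and its nearest protein-coding start was that of slbo, which encodes a C/EBP factor. The peak at asRNA:CR45281 (chr2R:9565031-9565710) had 729, with 635 in replicate 2 and no summit of replicate 1 within 100 bp, although a thresholded peak of replicate 1 overlapped it. Replicate 2 was the higher at the first of these by a wide margin and at the next by little.

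The peak at lncRNA:CR46006 (chr3L:10363687-10364044), host of mir-276a, had a signal of 712, with 194 in replicate 1 and 518 in replicate 2. This gene had 3 peaks within 500 bp of its annotated starts, the others with 548 and 40.5. These starts are internal ones, downstream of the outermost 5′ end of the gene. Those 2 share nearly the same interval (chr3L:10332081-10332473 and chr3L:10332081-10332478) and differ in the summit. Entries of the list that overlap in this way were counted as separate peaks. At lncRNA:CR44651 the peak (chr2R:20531360-20531648) had 635, with 306 and 326 in replicates 1 and 2. That at lncRNA:CR45668 (chrX:5900029-5900309) had 630, with 316 and 329, and its summit lay 187 bp before the start and 685 bp from a start of the actin gene Act5C. Among the 12 strongest peaks, replicate 1 was the higher at 4 and replicate 2 at 7, and 1 had no match in replicate 1.

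MicroRNA host transcripts with a peak were gathered over all ncRNA members. A total of 9 host genes with a peak held 10 hairpins, with host peak signals of 82.3 to 1849. Host genes without a peak were not counted, so no share of hosts can be set beside the 168 of 2548 ncRNA genes (6.59%). After CR31044, CR43651 and CR46006 came lncRNA:CR43857, host of mir-275 (353, with 141 in replicate 1 and 193 in replicate 2), and lncRNA:CR43650, host of mir-8 (207, with 98.9 and 104). Weaker peaks lay at lncRNA:CR43626, host of mir-282 (191), lncRNA:CR43334, host of mir-ban, which promotes growth (170), lncRNA:CR43314, host of mir-bft (115), and lncRNA:iab8, host of mir-iab-8 of the bithorax complex (82.3). The distance between summit and hairpin ran from 685 bp at mir-282 to 43572 bp at mir-iab-8, so the rule counted these peaks under ncRNA and not under the hairpin. At CR46006, CR43650, CR43626 and iab8 the start with the peak was internal, downstream of the outermost 5′ end of the gene.

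The 12 pre_miRNA peaks lay near hairpins themselves. The strongest was at mir-9377 (chrX:12665494-12665770), with a signal of 423, 219 in replicate 1 and 209 in replicate 2, in an intron of a protein-coding gene, and the nearest protein-coding start was that of Tis11. Next were mir-2491 (311, with 153 and 152 in replicates 1 and 2) and mir-275 (275, with 139 and 136). These 3 had nearly equal values in the replicates.

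Below these, mir-4962 had 258, with 85.3 in replicate 1 and 175 in replicate 2, and its summit was 5 bp inside the hairpin. The peak of mir-9370 had 162, with 72.3 and 78.0 in replicates 1 and 2. That of mir-14 had 160, with 52.9 in replicate 1 and no summit of replicate 2 within 100 bp. A thresholded peak of replicate 2 overlapped it, however, and none of replicate 1 did. It entered the rule 498 bp from the start of a mature product. The others were mir-4968 (118), mir-279 (116), mir-34 (105), mir-9378 (95.4), mir-4978 (95.1) and mir-92b (93.6). At mir-275, mir-279 and mir-14 the host transcript had another, stronger peak at its own start.

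Of the 21 microRNAs of a list on metamorphosis, growth and neurons, 4 had a peak at the hairpin by the rule, namely mir-34, mir-14, mir-279 and mir-275, against 12 of all 260 hairpins (4.62%). A further 8 had only a peak of the ranked list that did not pass the threshold, and 9 had none. The list holds let-7, mir-100 and mir-125, which lie in the transcript lncRNA:let7C and time metamorphosis. No ranked peak lay within 500 bp of the starts of let7C, but a conservative summit with a signal of 1074 lay 538 bp from one.

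The 13 tRNA peaks were weaker and closer to the gene. The strongest (chr3R:17619758-17619934) had a signal of 207, with 56.5 in replicate 1 and 149 in replicate 2. It overlapped tRNA:Ala-AGC-2-2, its summit lay between that gene and tRNA:Pro-TGG-1-2, and tRNA:Ala-AGC-2-3, on the far side of the Pro gene, also had its start within 500 bp. The next, at tRNA:Lys-TTT-1-1 (chr2L:8290937-8291127), had 188, with 88.5 and 92.9 in replicates 1 and 2, and its summit lay 305 bp past the start. The peak at tRNA:Ala-TGC-2-1 (chr2R:17392281-17392660) had 159, with 47.0 and 112 in replicates 1 and 2. Replicate 2 was the higher at all 3.

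The peak of tRNA:Phe-GAA-1-4 and tRNA:Phe-GAA-1-5 (chr2R:17604525-17604904) had a signal of 154, with 125 in replicate 2 and no match in replicate 1. The peak at tRNA:Gln-TTG-2-1 (chrX:3427540-3427919) had 141, with 64.0 and 78.1 in replicates 1 and 2. That at tRNA:Ser-AGA-2-4 (chr2L:3172848-3173227) had 110, with 84.4 in replicate 2 and no match in replicate 1. The remaining 7 ran from 76.0 to 107, and all 13 overlapped a thresholded peak of replicate 2, against 5 for replicate 1. Over all 7157 conservative peaks, 5981 overlapped one of replicate 2 and 5225 one of replicate 1.

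Bound tRNA genes were spread over amino acids. Ala (3 of 17), Glu (3 of 19), Ile (3 of 11) and Ser (3 of 20) had the most, Arg, Phe and Pro had 2 each, and Gln, Gly, Leu, Lys and Val 1 each. No gene of the other 10 kinds counted, which included Thr (0 of 17), Asp (0 of 14) and the initiator iMet (0 of 6), had a peak by the rule. Without the exclusion of protein-coding starts, Asp and Trp had 2 each and His and Tyr 1 each. Of the tRNA genes with another tRNA start within 1000 bp, 19 of 183 had a peak (10.4%), against 4 of 107 isolated genes (3.74%). One summit can serve several neighbours in a cluster, as the 13 peaks for 23 genes show, and this difference was not tested.

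Many tRNA genes have identical copies. Of the 23 tRNA genes with a peak, 14 had a gene of identical sequence elsewhere (60.9%), against 224 of the 267 without (83.9%). The sources do not say how the authors placed reads that match several copies, and the part of read placement in this difference was not tested. Within the tRNA genes, TTCNANNC was present on the sense strand in 21 of 23 with a peak (91.3%), against 250 of 267 without (93.6%). The stricter spelling TTCGANTCC was in 9 of 23 (39.1%), against 96 of 267 (36.0%). For the A box, TGGCNNAGT was in 0 of 23, against 34 of 267 (12.7%), and the looser TNGCNNAG was in 10 of 23 (43.5%), against 134 of 267 (50.2%).

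The 3 snRNA peaks were at snRNA:7SKa, snRNA:U1:95Ca and snRNA:U4:39B. 7SK RNA holds the elongation factor P-TEFb inactive, and its gene had a signal of 209, with 61.3 in replicate 1 and 138 in replicate 2, at a summit 272 bp inside the gene. U1, which recognizes the 5′ splice site, had 159, with 47.2 and 126 in replicates 1 and 2, and a summit 7 bp inside. U4, which pairs with U6, had 97.2, with 35.5 and 71.0 in replicates 1 and 2, and a summit 16 bp inside. All 3 were higher in replicate 2.

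The word AATTCCCAA stood on the sense strand within the 100 bp upstream of all 3 of these genes, and of 22 of all 32 snRNA genes (68.8%). It was upstream of 8 of 2548 ncRNA genes (0.314%), 3 of 269 snoRNA genes (1.12%) and 1 of 290 tRNA genes (0.345%). The summit windows of the 3 peaks did not hold it, on either strand, because the summits lay inside the genes and the windows did not reach it. The whole peak intervals at U1:95Ca and U4:39B spanned the word, and that at 7SKa did not. Of the 29 U-type snRNA genes, U1:95Ca and U4:39B were the 2 with a peak, against 213 of all 3498 non-coding genes (6.09%). A peak at U2:34ABb had a summit 3 bp from the start but 486 bp from a protein-coding start, and was left out. Another 3 genes had a ranked peak only, and 23 had none, U6 among them. The copy U1:95Ca has genes of the same sequence elsewhere.

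Of 6 genes for 7SK, 7SL, RNase P and RNase MRP RNA, 7SKa and RNaseMRP:RNA had a peak, against 213 of all 3498 non-coding genes (6.09%). RNaseMRP:RNA, the RNA of an enzyme that processes ribosomal RNA, had a signal of 136, with 50.3 in replicate 1 and 87.9 in replicate 2, and is annotated as ncRNA. 7SKb, RNaseP:RNA and 7SLRNA:CR32864 had no ranked peak, and 7SLRNA:CR42652 had only a ranked one with a signal of 36.7.

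The 6 snoRNA peaks covered 7 genes. The strongest (chr2R:9095076-9095271) lay 82 bp before Uhg4, a host gene whose introns carry snoRNAs, and had a signal of 281, with 129 in replicate 1 and 143 in replicate 2. It counted also for snoRNA:Or-aca5 and snoRNA:Psi28S-2949, which lie inside Uhg4. The peak at snoRNA:Psi18S-176 had 183, with 57.6 and 127 in replicates 1 and 2, and that at snoRNA:Or-CD13 had 171, with 85.4 and 87.3. In all 3 replicate 2 was the higher.

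The peak at snoRNA:Psi28S-2622 had a signal of 126, with 39.8 in replicate 1 and 89.9 in replicate 2, and that at snoRNA:abba-a had 116, with 62.9 and 54.0. The weakest was at snoRNA:Me28S-A1322, with 70.6. Of the 7 Uhg host genes, Uhg4 was the 1 with a peak, against 213 of all 3498 non-coding genes (6.09%). Uhg7 had a ranked peak of 34.6, and the other 5 had none.

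Of a list of 12 known lncRNAs, 11 were matched by symbol or synonym, and 2 had a peak at an annotated start, against 144 of all 1945 genes called lncRNA (7.40%). They were lncRNA:CR34335, listed in RefSeq under the synonym MRE16 (501, with 260 in replicate 1 and 254 in replicate 2), and iab8, at an internal start (82.3, with 45.7 and 37.7). The dosage compensation RNAs roX1 and roX2 had ranked peaks only, of 47.8 and 18.9. The stress RNA Hsromega had a ranked peak of 175 that was not in the conservative list, acal had 22.3 and noe 44.2. The other 4, let7C, bxd, yar and cherub, had no ranked peak. The name bft was matched to the hairpin mir-bft alone and was given no value as a lncRNA; the host transcript of that hairpin, lncRNA:CR43314, had a peak, given above.

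By name, 144 of 1945 genes called lncRNA had a peak (7.40%, 6.32 to 8.65), against 18 of 503 called asRNA, which are antisense RNAs (3.58%, 2.28 to 5.59). Among ncRNA genes, the share was 7.29% of 1522 with a start outside protein-coding genes, 5.67% of 759 that start antisense inside one and 5.60% of 250 that start sense inside one. A start inside a protein-coding gene is more often near a protein-coding start, and the rule removes those peaks. With genes counted only where no protein-coding start was within 1000 bp of any of their starts, the shares were 8.74% of 1510 for lncRNA, against 3.83% of 209 for asRNA. By location, the same restriction gave 8.42% of 1187 outside protein-coding genes, 7.32% of 410 antisense inside one and 6.29% of 175 sense inside one. The lower share of asRNA was present in both counts, and so was the higher share outside protein-coding genes. These differences were not tested.

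Summits were less tightly placed at non-coding than at protein-coding starts. The median distance of a summit from the nearest start was 194.5 bp, against 108 bp at protein-coding starts. Summits within 100 bp made up 27.6%, against 46.7%, and summits upstream of the start 58.1%, against 71.2%. Among classes, tRNA summits were close, with a median of 58 bp and 8 of 13 within 100 bp, and pre_miRNA summits far, with a median of 346 bp. For ncRNA the median was 200 bp. The classes differ in what the annotated start stands for, as said above, and the differences were not tested.

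**Figure D4:**
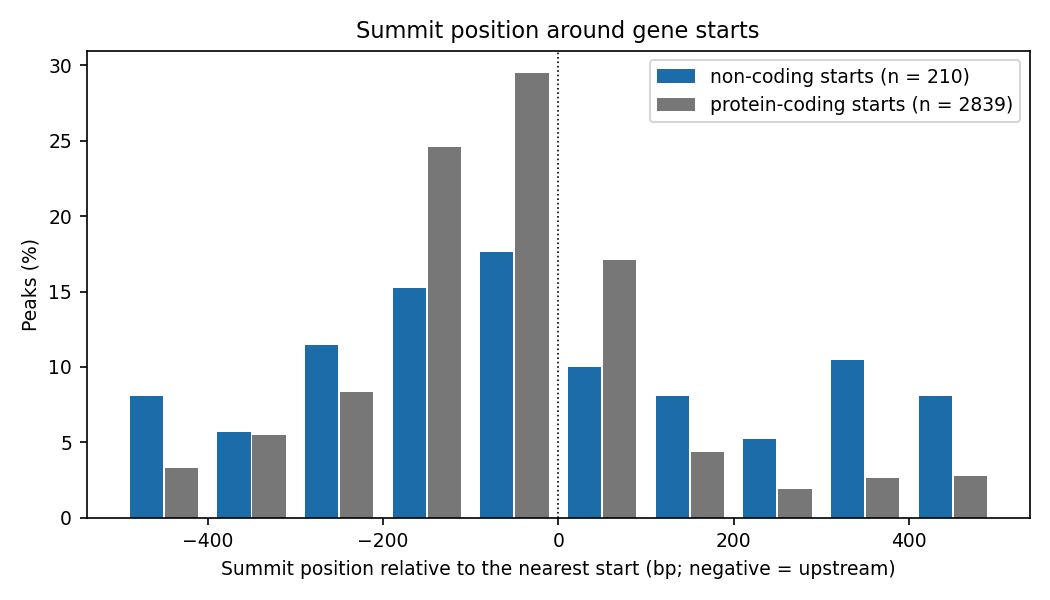
Share of peaks (%, y axis) by position of the summit relative to the nearest start (bp, x axis, negative is upstream, bins of 100 bp), for non-coding starts in blue and protein-coding starts in grey. The bin just upstream of the start holds 17.6% of the non-coding peaks, against 29.5% of the protein-coding ones, and the non-coding bins reach 10.5% at 300 to 400 bp downstream.

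Summits were denser near non-coding starts than far from them, a difference that was not tested. Outside protein-coding start windows there were 91.2 summits per Mb within 250 bp of a non-coding start and 66.4 per Mb from 250 to 500 bp. The density was 69.6 per Mb from 500 to 750 bp and 33.4 per Mb beyond 2000 bp. Over all such sequence it was 35.3 per Mb, and within 500 bp it was 79.7 per Mb. It was lower in each further bin from 750 bp on, without a step at the 500 bp of the rule. At that edge the 4 peaks just inside, at 492 to 500 bp, had signals of 153, 150, 160 and 1043, and the 4 just outside, at 503 to 508 bp, had 343, 112, 158 and 185. On the protein-coding side, the 3 peaks kept at 505 to 508 bp had 177, 64.7 and 131, and the 3 left out at 479 to 494 bp had 85.4, 103 and 142.

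**Figure D5:**
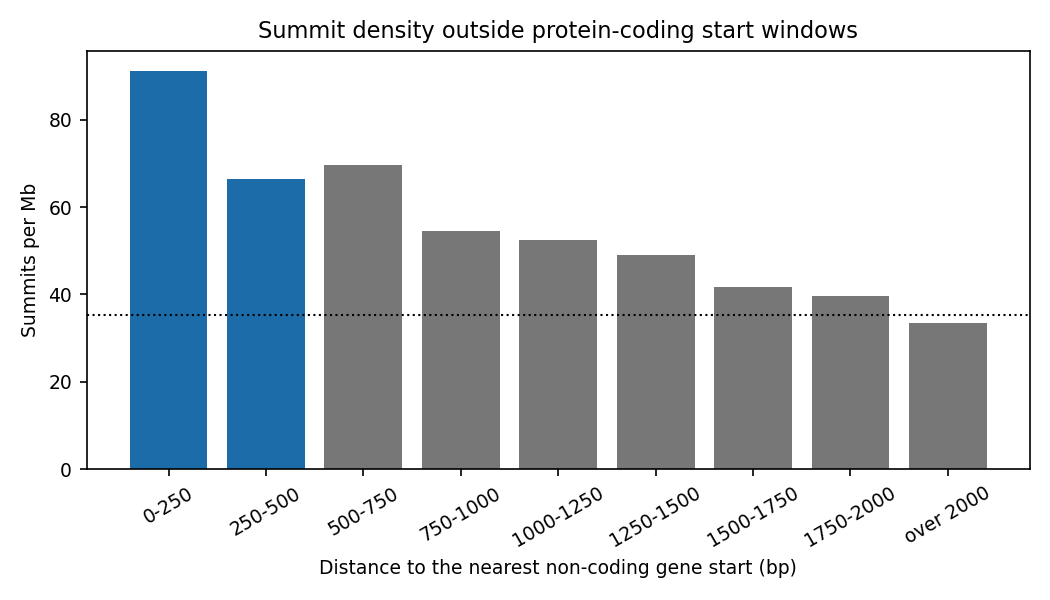
Conservative summits per Mb (y axis) by distance to the nearest non-coding start (bp, x axis), outside windows of 500 bp around protein-coding starts. Blue bars are the distances of the rule and the dotted line is the value over all such sequence, 35.3 per Mb. Density is 91.2 per Mb in the nearest bin and 33.4 per Mb in the farthest.

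The peaks lay in several kinds of sequence. Of the 210, 72 summits were intergenic, 70 in protein-coding introns, 53 in non-coding exons, 11 in non-coding introns and 4 in protein-coding exons. The median distance to the nearest protein-coding start was 3190 bp, with 36 within 1000 bp and 66 beyond 5000 bp. By chromosome arm there were 46 on 2L, 48 on 2R, 44 on 3L, 46 on 3R and 26 on X, and none on 4 or Y. The X share was 12.4%, against 19.7% of all peaks, and 5.53% of the non-coding genes on X had a peak, against 6.09% of all.

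Short sequence words were counted in the same windows, 50 bases on either side of the summit, and in windows of the same size 500 bp to either side, on both strands. GGAA was in 48.6% of the 210 summit windows and in 50.2% of their flanks, against 49.1% and 55.1% for all peaks. GGAT was in 31.4% of summit windows and 42.4% of flanks, against 30.9% and 39.3%. Over the 210 peaks neither core was more frequent at the summit than beside it. The longer CCGGAAGT, which contains the GGAA core, was in 0 of 210 summit windows (upper bound 1.80%) and none of their flanks, against 9 of 7157 summit windows of all peaks (0.126%).

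Other promoter words were counted in the same way. GAGAG, which the GAGA factor binds, was in 17.1% of summit windows and 14.0% of flanks, against 16.6% and 12.7% for all peaks. TATAAAA was in 7.62% and 6.67%, against 7.84% and 4.55%. TATCGATA, the DNA replication-related element, which overlaps CGATA, was in 0 of 210 summit windows (upper bound 1.80%), against 2.11% at protein-coding starts, 0.908% of all peaks and 0.122% of the 4108 peaks at neither kind of start. GGTCACAC, a core promoter word of fly housekeeping genes, was in 0 of 210, against 1.34%, 0.657% and 0.219% in the same sets. Its upper bound of 1.80% lay above all 3 of these shares. CGATA was in 9.52% (6.25 to 14.3), against 17.2% (15.9 to 18.7) at protein-coding starts, 12.8% of all peaks and 9.83% of peaks at neither. For these words the shares at non-coding starts were below those at protein-coding starts and nearer to those of peaks at neither, which was not tested. GATAAG was in 5.24%, against 5.14% at protein-coding starts and 4.90% of all peaks.

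Base composition differed between summit and flank. The median GC content was 35.6% at the summits of the 210 peaks and 40.6% in their flanks, against 40.6% and 43.6% at protein-coding starts and 35.6% and 42.1% over all peaks. At the 4108 peaks at neither kind of start it was 33.7% and 41.1%. The summits at non-coding starts thus had the median of all peaks. In the 50 strongest of the 210 it was 32.7% at the summit and 43.6% in the flanks, with GGAA in 32% of summit windows and 50% of flanks, and GGAT in 40% and 36%. Of the windows shown above, those of lncRNA:CR44619 (29.7%) and mir-9377 (26.7%) are of this AT-rich kind. Among the same 50 peaks, the window of lncRNA:CR31044 had 39.6% and that of lncRNA:CR43857 62.4%. The peak of snRNA:7SKa is not among the 50, and its window had 71.3%. The median over the 3 snRNA peaks was 56.4%. Shares of words depend on composition, and its part in these shares was not tested.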

How the data were processed

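The authors deposited peak lists on dm6, per the labels, for each replicate (ranked, and thresholded by the irreproducible discovery rate) and for both together. The sources used here name no aligner, peak caller or version. Column 7 holds the deposited signal of each peak, and 16 columns of values of the compared lists, in the series-level lists, were not used. Starts were all annotated transcript starts of Ensembl release 115 on 7 chromosome arms, and the 481 mature microRNA entries were counted with their hairpin. A replicate value is the signal of the ranked peak of that replicate with a summit within 100 bp. Genes of the lists were matched by symbol or RefSeq synonym, with mir-263a given by the symbol mir-bft and no value for the lncRNA bft. Sequence was read from the RefSeq Release 6 genome, and no sequence is printed for genes on some chromosome arms.

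Within each class the strongest 12 ncRNA, 6 tRNA, 6 pre_miRNA, 5 snoRNA and 5 snRNA peaks by signal were named, or all where there were fewer, beside the gene lists. MicroRNA hosts, the looser box words TNGCNNAG and TTCNANNC, and some windows shown were chosen after their values were seen. The members and lists were chosen with earlier results of these data known. No test across samples was possible with 1 group, so counts are given beside their background. The assignment was tested on simulated data. Python 3.11.15, NumPy 2.4.6, pandas 2.3.3, SciPy 1.17.1 and matplotlib 3.10.9 were used. Alternatives were the window, the start set, the peak list, each replicate alone, a signal minimum and the overlap rule.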

Additional observations from a re-analysis of the deposited data

How the results depend on the processing

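The count of 210 peaks became 112 with signals at or above the median of all peaks, and ran from 168 (without replicate 2) to 236 (without replicate 1). It was 143 with a window of 250 bp and 282 with 1000 bp. With the outermost start of each gene it was 220, and in the other series-level list 266. Bound tRNA genes were 23, against 47 in the other series-level list, 8 with the signal minimum and 35 with protein-coding starts ignored, and 12 to 50 with 1 replicate left out. Windows of 250 and 1000 bp gave 17 and 28 tRNA genes. For ncRNA genes the 168 became 91 with the signal minimum and 267 with protein-coding starts ignored, and were 139 to 168 with 1 replicate left out. Windows of 250 and 1000 bp gave 114 and 224 ncRNA genes. Bound pre_miRNA genes, 12, became 5 with a window of 250 bp, 21 with 1000 bp and 6 with the signal minimum, and were 7 to 11 with 1 replicate left out. Bound snoRNA genes, 7, became 4 with windows of 250 and of 1000 bp and with the signal minimum, and 15 with protein-coding starts ignored, and were 6 to 11 with 1 replicate left out. Bound snRNA genes stayed between 2 and 4. The median percentile of 52.6 became 41.8 with a window of 250 bp, and was 48.5 to 53.9 with 1 replicate left out. The share in both replicate lists became 98.6% with ranked lists. The signal minimum keeps fewer peaks and ignoring protein-coding starts keeps more by construction, while the cause of the tRNA differences between lists was not tested. No paired analysis was possible because there is 1 group. Depth is unknown, which limits any statement about genes without a peak.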
